A study of Schizocosa ocreata with 10 samples.

Results

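Genes for making, modifying, digesting and binding chitin were followed in RNA from the brain of the wolf spider Schizocosa ocreata. The rule for the genes reads only the annotation and no counts, though it was set with earlier results of these data known. It takes the genes with a chitin-binding peritrophin domain (CBM_14), a GH18 chitinase domain, a polysaccharide deacetylase domain or a chitin synthase domain, or named after kkv, the Drosophila chitin synthase. Genes that also held the chitin-binding domain of cuticle proteins or a trypsin domain were to be left out, which removed 0 genes. The choice gave 65 of 25922 counted genes: 1 synthase, 5 deacetylases, 15 members of the chitinase family, and 44 peritrophin-type genes that held the binding domain and none of the enzyme domains. A gene symbol in this text is the name of the best match in Drosophila melanogaster, so several spider genes share 1 symbol.

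Each library came from the brain of 1 field-collected spider, and no spider had been given a treatment. Mature males (n = 2) and mature females (n = 3) were taken 24 hours past their final molt, and immature males (n = 3) and immature females (n = 2) 3 to 4 days after collection. The time left until the molt was not known for the immature spiders, and the brains, freed of the muscle around them, may have held esophagus. Libraries are called by group and the replicate number of the labels, and listed values run in the order of those numbers, which are 2 and 3 for mature males and immature females and 1, 2 and 3 for the other groups.

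Chitin is a polymer of N-acetylglucosamine. It stiffens the outer cuticle and the cuticle that lines the fore gut, including the esophagus, which in spiders passes through the brain. A membrane-bound synthase polymerises it from UDP-N-acetylglucosamine, deacetylases trim acetyl groups from it, and proteins of the Gasp and obstructor families bind it and hold it in layers. Before each molt, GH18 chitinases cut the chitin of the old cuticle into oligomers, which hexosaminidases split into single sugars, while new cuticle is laid down below. The roles given for single genes are those known from Drosophila, unless stated otherwise.

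The library totals lay between 3481348 counts in mature female 2 and 11789754 counts in mature female 3, and 1 count was worth 0.0780 to 0.307 CPM, the unit of library-scaled counts used here (TMM factors). Marker lists for the labelled tissue and for cells that could come with it were matched by Drosophila symbol. The 49 genes of the neuron list (13 of 14 symbols matched, elav not among them) held 0.301 to 0.702% of the counts of a mature library, against 0.309 to 0.493% of an immature one. The 22 muscle genes (8 of 12 symbols) held 8.62 to 13.2% in mature brains, against 5.69 to 11.2% in immature brains, and the 16 blood cell genes (4 of 7 symbols) 0.0724 to 0.0835%, against 0.0694 to 0.139%. The 94 genes with the cuticle protein domain held 0.166 to 0.879% in mature brains, against 0.0528 to 0.828% in immature brains. All of these ranges overlapped between the stages. Within the gut list only Mur89F was matched, by 2 genes that were themselves chitin genes, so that no independent gut marker was left. The part of these other cells in the results below was not tested, and in RNA from whole tissue fewer cells of a type and less RNA per cell cannot be told apart.

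The chitin genes were a small share of each library. Together they held 0.199 and 0.101% of the counts in mature males and 0.176, 0.495 and 0.0727% in mature females, against 0.329, 0.147 and 0.202% in immature males and 0.285 and 0.134% in immature females. The highest and the lowest of the 10 shares thus both came from mature females, and the ranges of mature and immature brains overlapped. The library with the highest share, mature female 2, also had the highest share of cuticle protein genes (0.879%), although mature male 2 had nearly as much of these (0.878%) with 0.199% for the chitin genes.

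The chitin genes had a longer median coding length than all genes, and many carried a predicted signal for secretion. Their coding length was 306 to 4716 nucleotides with a median of 843, against a median of 480 for all counted genes. A signal peptide was predicted for 32 of the 65 (49.2%), against 7.33% of all counted genes, and a transmembrane helix for 0. A CBM_14 domain stood in 52 of the 65, among them 4 of the 5 deacetylases and 4 of the 15 chitinase family genes. Of the 44 peritrophin-type genes, 26 held 1 such domain, 7 held 2, 7 held 3, and the mucin-like Mur89F gene Gene003498 held 12. A Drosophila name was given to 61 of the 65, with 30 distinct names, of which CG12009 stood on 7 genes and Gasp on 5. The classes go by domain, and the peritrophin type holds some genes named after chitinases or deacetylases. These were Cda4 Gene009060, Cht4 Gene001159 and Cht6 Gene021518 and Gene024470. Gene021518 and Gene024470 match residues 501 to 571 and 504 to 682, past the stretches that the GH18 genes named Cht6 match. They may be pieces of chitinase transcripts. Another coding sequence on the same contig overlapped 27 of the 65 (41.5%, against 33.5% of all counted genes), and reads of such genes may be shared.

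Per kilobase of coding sequence, the most abundant chitin genes were chitin-binding proteins and a deacetylase. Over the 10 libraries the mean was 538 CPM per kb for Gene003622 (CG12009), 237 for Gene019599 (Gasp), 191 for Gene007131 (CG12009) and 166 for Gene005700 (serp). The first place in this order rested on 1 spider. Without mature female 2 the mean was 136 CPM per kb for Gene003622, 222 for Gene019599, 123 for Gene007131 and 151 for Gene005700, so that the Gasp gene came first. Without immature male 3, Gene007131 (211 CPM per kb) stood above Gene019599 (206 CPM per kb). The median over the 65 genes was 9.61 CPM per kb, and by class the median was 15.3 for deacetylases, 5.40 for the chitinase family and 13.1 for peritrophin-type genes. The only synthase gene stood 14th of 65 with 54.5 CPM per kb. In 5 libraries, mature male 3, mature female 3, immature male 1, immature male 2 and immature female 3, the serp gene Gene005700 had the most counts of all chitin genes. In mature female 2, Gene003622 alone held 41.7% of all chitin gene counts, and in immature female 2 the chitinase Cht5 held 28.1%.

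**Figure D1:**
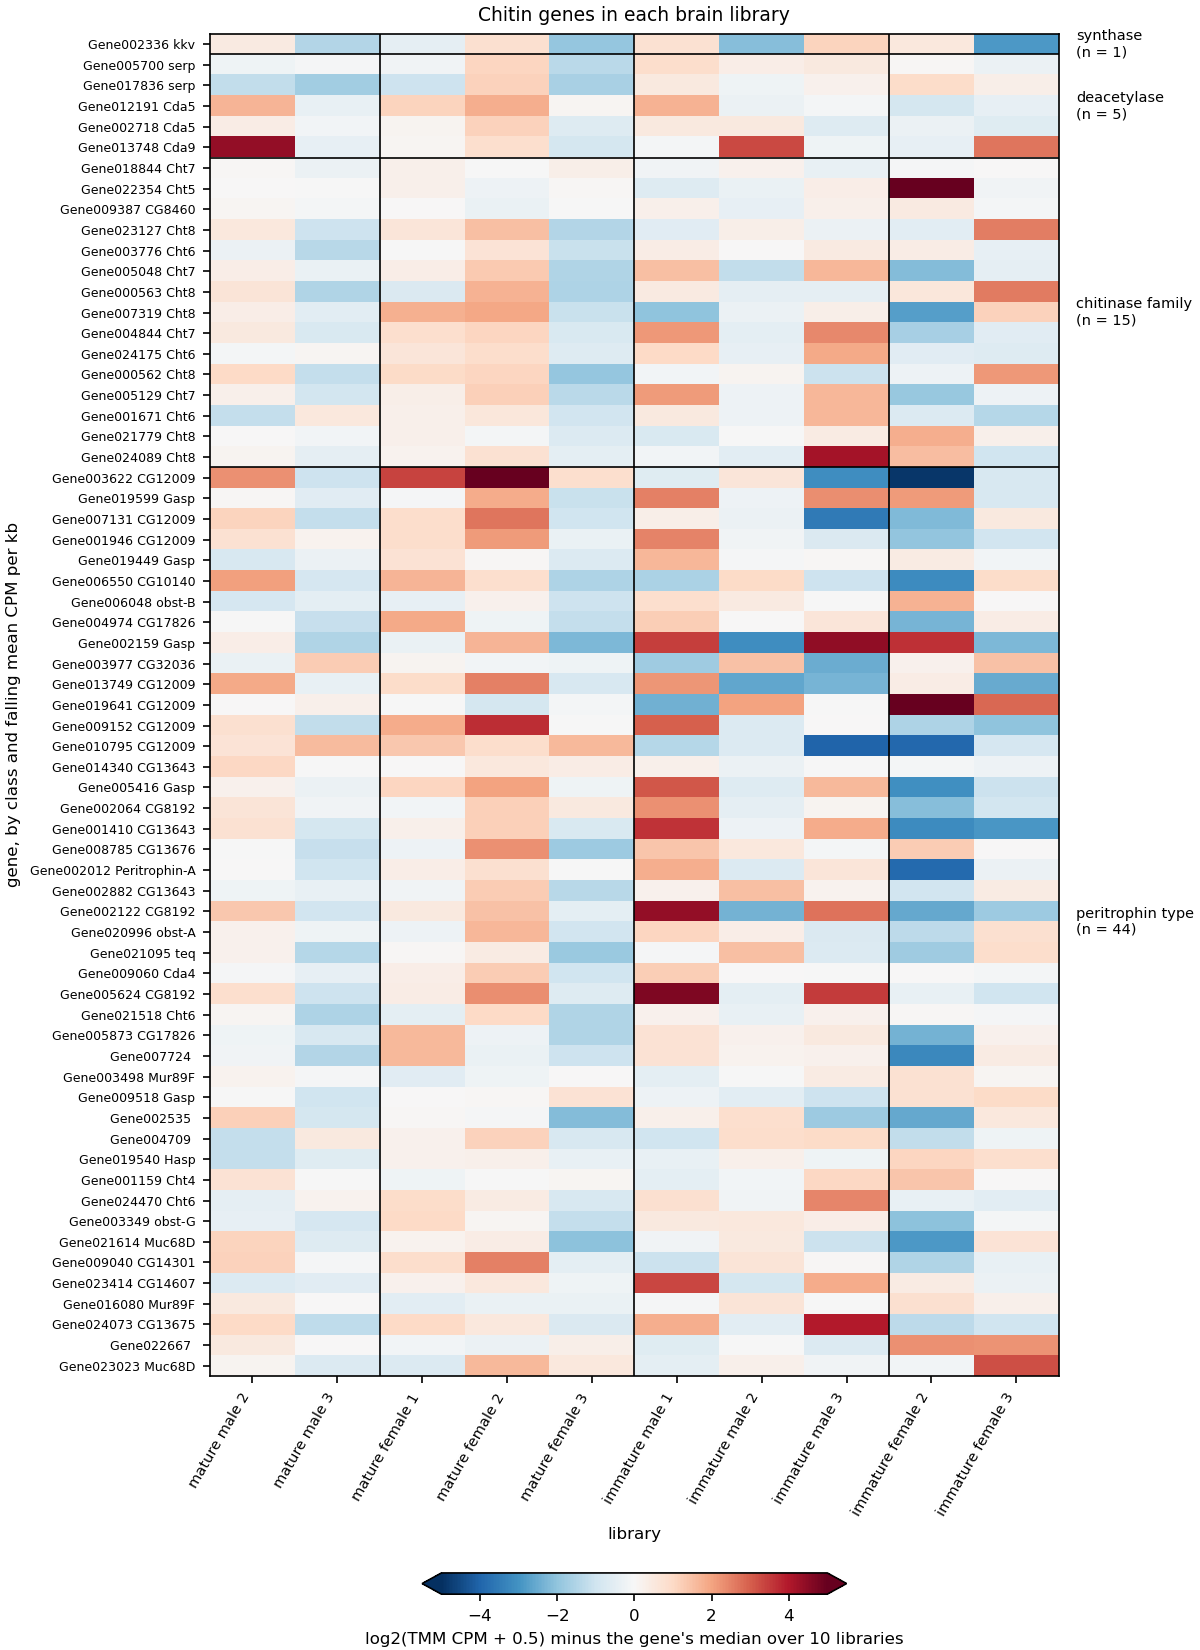
Each row is 1 of the 65 chitin genes, by class and falling mean CPM per kb, and each column 1 library, with mature libraries left of immature ones. The color gives log2(TMM CPM + 0.5) minus the gene's median over the 10 libraries, from blue (low) to red (high). The dark cell of Cht5 in immature female 2 (723 CPM) and the red row of CG12009 Gene003622 in mature females stand out, as does the mostly blue column of immature female 2.

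The spread between spiders of 1 group was wide for these genes. The median within-group standard deviation of log2 CPM was 1.12 in mature and 1.29 in immature brains for the 65 genes, against 0.41 in mature and 0.47 in immature brains for all 24930 genes tested. It was larger in immature than in mature brains for 41 of the 65 genes (63.1%, against 58.1% of all genes), yet for 0 of the 5 deacetylases. The median biological coefficient of variation was 0.724 for the chitin genes and 0.358 for all genes. The widest spreads in immature brains were those of the Gasp gene Gene002159 (standard deviation 4.30) and of Cht5 (3.79, against 0.24 in mature brains). The widest in mature brains was that of Gene003622 (2.54).

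**Figure D2:**
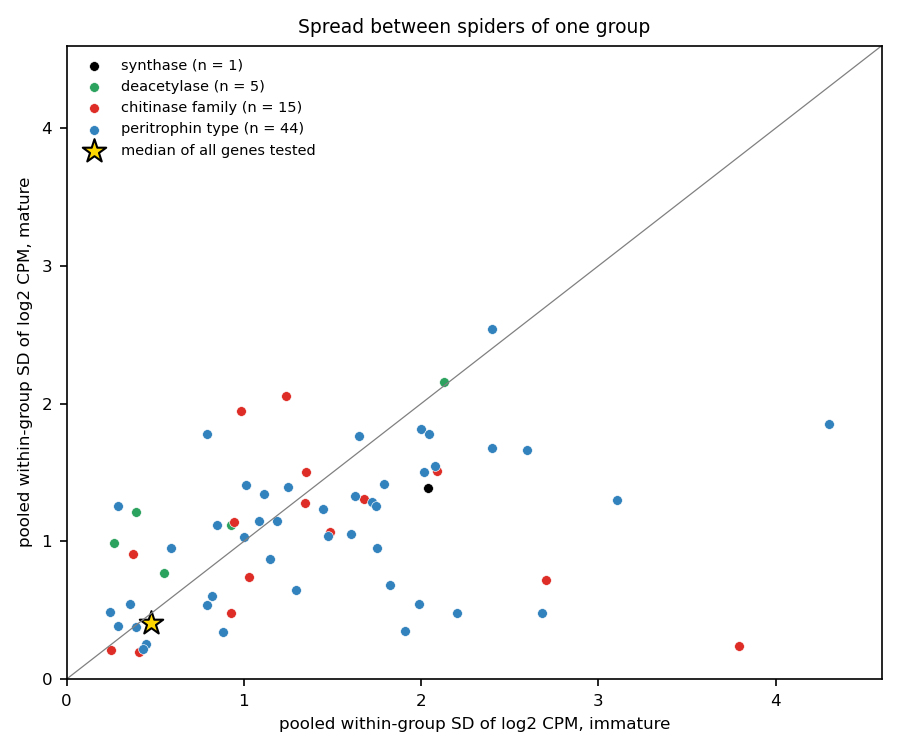
For each of the 65 chitin genes the pooled within-group standard deviation of log2 CPM among mature brains (vertical axis) is set against that among immature brains (horizontal axis), and the star is the median of all genes tested. Most points lie above and right of the star, and Cht5, with 0.24 in mature and 3.79 in immature brains, lies far to the right near the bottom.

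Single libraries carried much of this spread. Mature female 2 was the highest of the 10 libraries for 16 of the 65 genes (24.6%, against 8.69% of all genes), while immature female 2 was the lowest for 23 (35.4%, against 13% of all genes). Relative to the median of the 5 mature libraries, 24 of the 65 genes were more than 4-fold lower in immature female 2 (36.9%, against 3.02% of all genes) and 8 were more than 4-fold higher (12.3%, against 3.19%). Immature male 1 and immature male 3 each held 8 genes more than 4-fold above that median (12.3%, against 2.68% of all genes in immature male 1 and 2.96% in immature male 3). More than 4-fold below it lay 6 genes in immature male 1 (9.23%, against 2.44%) and 7 in immature male 3 (10.8%, against 3.49%). In immature male 2, 2 genes were more than 4-fold higher (3.08%, against 1.97%) and 4 lower (6.15%, against 1.24%). In immature female 3, 6 were higher (9.23%, against 1.84%) and 9 lower (13.8%, against 2.36%). Mature libraries also lay apart from their own median. In mature female 2, 7 genes were more than 4-fold higher (10.8%, against 0.947%) and 0 lower. In mature female 3, 7 were lower (10.8%, against 1.78%) and 0 higher, and in mature male 3, 5 were lower (7.69%, against 0.726%) and 0 higher. Mature male 3 was the highest library for 0 of the 65 genes (0%, against 5.86% of all genes).

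Comparisons used edgeR's quasi-likelihood test over all 24930 genes that passed a filter on low counts, which all 65 chitin genes did, with Benjamini-Hochberg adjusted p under 0.05 as the threshold. A log2 fold change (log2FC) is mature over immature, or male over female, and stands with its standard error. Since no 2 libraries came from 1 spider by the labels, p-values measure the spread between these spiders.

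The design asked first how the brain differed between spiders that had just molted to maturity and immature ones. Over both sexes the quasi-likelihood test called 0 of the 65 chitin genes, as it called 0 (0%) of all genes. At an unadjusted p under 0.05 stood 10 of the 65 (15.4%, against 15.1% of all genes). The likelihood ratio test of edgeR called 4 (6.15%, against 2.59%), 2 of them higher (1.08% of all genes) and 2 lower (1.5% of all genes) in mature brains, and DESeq2 called 5 (7.69%, against 2.98%). The libraries of the 2 stages did not overlap for 1 gene, Gene010795 (3.4% of all genes). The median log2FC was -0.16 for the 65 genes and -0.02 for all genes, with 28 genes above 0 and 37 below. Over the same comparison the median log2FC was 0.39 for the neuron list (45 of 49 above 0), 0.31 for the muscle list (18 of 22) and -0.38 for the blood cell list (4 of 16). Without immature female 3, the quasi-likelihood test called 1 gene, Cht5 (log2FC -4.48, adjusted p = 0.0118). Immature females are then immature female 2 alone, the spider that held nearly all Cht5 counts, and this lone library is assumed to vary like those of the other groups. The same holds for each value given below without immature female 3.

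The synthase gene kkv (Gene002336, bases 284 to 1165 of its contig) matched residues 1297 to 1520 of the Drosophila protein with 59.21% identity and so covers only a late stretch of it. It had 65.2 and 16.8 CPM in mature males and 34.4, 83.9 and 11.9 CPM in mature females, against 81.2, 10.4 and 103 CPM in immature males and 67.7 and 6.01 CPM in immature females. High and low brains thus stood in each of the 4 groups, and the stages overlapped over their whole range. The log2FC over both sexes was -0.22 ± 0.84 (SE, quasi-likelihood adjusted p = 0.918), and it turned positive when any 1 of 4 libraries was left out, at most to 1.13 without immature female 2. A further gene with a chitin synthase match, Gene002337, fell outside the choice of genes and had 0 to 16 counts in a library.

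Genes that act before the synthase and beside it were followed as fixed lists. The precursor list (10 genes: hexokinase Hex-A, Pgi, Gfat1, Gnpnat, nst and mmy, the enzymes on the way to UDP-N-acetylglucosamine) had a median log2FC over both sexes of -0.21, with 3 genes above 0. The assembly list (5 tested of 6 counted) had a median of -0.25. The quasi-likelihood test (0% of all genes) and the likelihood ratio test (2.59% of all genes) called 0 genes of either list. An unadjusted p under 0.05 was reached by 3 genes of the first and 0 of the second (15.1% of all genes). Within the assembly list, knk (Gene005523), which organises newly made chitin, had 11.2 and 3.54 CPM in mature males and 11.7, 11.4 and 4.33 CPM in mature females, against 23.5, 2.84 and 46.5 CPM in immature males and 44.7 and 1.86 CPM in immature females. As for kkv, its 3 highest immature libraries were immature male 1, immature male 3 and immature female 2.

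The deacetylases had the lowest median biological coefficient of variation of the classes, 0.551. Their median within-group standard deviation of log2 CPM was 0.55 in immature brains, against 1.24 for the chitinase family and 1.46 for the peritrophin type, but 1.12 in mature brains, near the 1.07 and 1.13 of those classes. The 2 serp genes belong to a class of secreted deacetylases that carry a CBM_14 and an LDL receptor domain and act on the chitin of Drosophila airways and cuticle. Gene005700 had 201 and 228 CPM in mature males and 207, 489 and 92.2 CPM in mature females, against 429.8, 293 and 329 CPM in immature males and 243 and 194 CPM in immature females. The male groups did not overlap, the female groups did, and the log2FC over both sexes was -0.22 ± 0.39 (quasi-likelihood adjusted p = 0.804). Gene017836 (another coding sequence overlaps it) had 53.4 and 37.6 CPM in mature males and 61.7, 280.1 and 40.3 CPM in mature females, against 176, 109 and 146 CPM in immature males and 239 and 152 CPM in immature females. Here 4 of the 5 mature libraries lay below all immature ones and mature female 2 lay above them all. Its log2FC was -1.14 ± 0.51 (quasi-likelihood adjusted p = 0.331), and -1.80 without mature female 2, with no call. For the 5 deacetylases the log2FC ran from -1.14 to 1.05 over both sexes.

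The chitinase family held the gene with the lowest coefficient of variation of all 65, Gene018844, and the gene with the largest gap between its highest and next library, Cht5. Cht5 (Gene022354, bases 205 to 1911 of its contig, with a GH18 and a CBM_14 domain), a chitinase of the molting fluid, had 1.21 and 1.18 CPM in mature males and 1.50, 0.922 and 1.26 CPM in mature females, against 0.593, 0.835 and 1.64 CPM in immature males and 723 and 0.984 CPM in immature females. Immature female 2 alone, with 9265 counts, was high, at 442 times the next library, and the other 9 libraries had 3 to 14 counts each. The log2FC over both sexes was -3.99 ± 1.27 (quasi-likelihood adjusted p = 0.250, likelihood ratio 0.0218), but it was 0.30 without immature female 2. Its mean of 43.0 CPM per kb was second in the class to that of Gene018844 (81.7 CPM per kb), a place it owed to 1 spider.

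Gene018844, named Cht7 in the annotation but with its best protein match to another Drosophila gene, was even across brains. It had 32.5 and 25.1 CPM in mature males and 37.0, 30.4 and 38.6 CPM in mature females, against 27.8, 36.6 and 24.1 CPM in immature males and 29.6 and 31.9 CPM in immature females, with a log2FC of 0.09 ± 0.19 (quasi-likelihood adjusted p = 0.846). The other genes named Cht7 behaved differently. Gene004844, Gene005129 and Gene005048 match consecutive stretches of 1 Drosophila protein (residues 104 to 398, 392 to 807 and 782 to 1009), so they may be fragments of 1 transcript and are not independent. Gene004844 had 3.73 and 1.28 CPM in mature males and 4.93, 5.84 and 1.26 CPM in mature females, against 13, 1.67 and 15.5 CPM in immature males and 0.468 and 1.53 CPM in immature females. All of these fragments were highest in immature male 1 and immature male 3 and lowest in immature female 2. Immature female 2, which held the most Cht5, thus held the least of this second chitinase.

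Enzymes that finish the digestion of chitin oligomers were followed in a list of 5 genes, whose median log2FC over both sexes was -0.37. The quasi-likelihood test called 0 of them, and 2 had an unadjusted p under 0.05 (15.1% of all genes). The likelihood ratio test called 1 (2.59% of all genes), the hexosaminidase gene Hexo2 Gene019783, which another coding sequence overlaps. It had 26.9 and 2.26 CPM in mature males and 7.82, 10.8 and 3.43 CPM in mature females, against 46.0, 10.9 and 48.7 CPM in immature males and 782 and 15.9 CPM in immature females (log2FC -3.53 ± 1.06, quasi-likelihood adjusted p = 0.238, likelihood ratio 0.0216). The library that stood far above the others was the one that was high for Cht5, immature female 2.

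**Figure D3:**
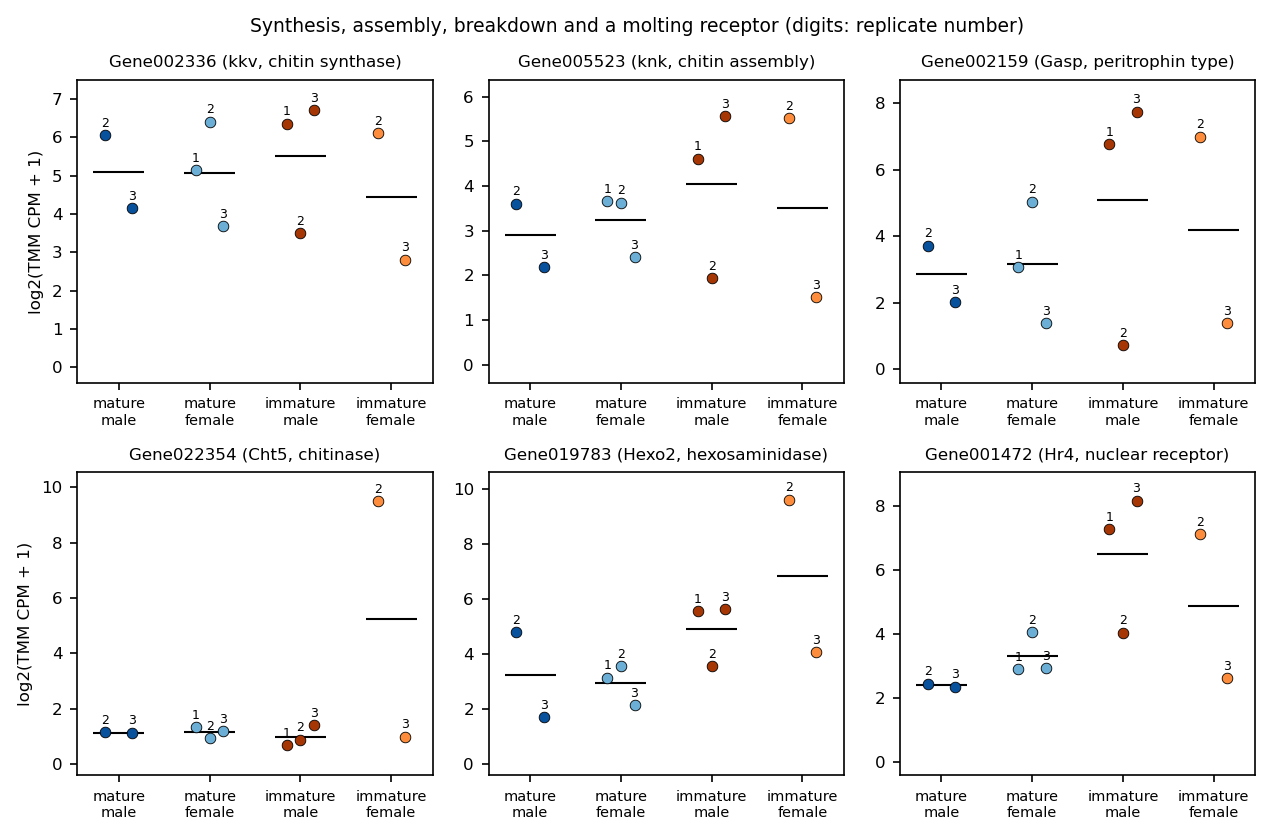
Levels as log2(TMM CPM + 1) of 6 genes of chitin synthesis, assembly, binding, breakdown and molting control, 1 dot per brain with its replicate number, mature groups left of immature ones, and the bar at the group mean. Immature brains fall far apart for kkv, knk, Gasp Gene002159 and Hr4, with immature female 3 and immature male 2 low. Cht5 and Hexo2 Gene019783 are far higher in immature female 2 (723 and 782 CPM).

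Besides Cht5, the chitin genes that the likelihood ratio test called for stage over both sexes were peritrophin-type genes that share 1 symbol, and their directions differed. CG12009 is a Drosophila protein with a chitin-binding domain of the peritrophin type, and its 7 spider matches all hold 1 such domain. The stretches of the Drosophila protein that any pair of them matched overlapped by at least 53 residues, so these genes match the same part of it. Gene003622 had 155 and 15.5 CPM in mature males and 333, 2207 and 56.8 CPM in mature females, against 20.7, 48.8 and 3.27 CPM in immature males and 0.624 and 18.0 CPM in immature females. The female stages did not overlap, the male stages did, and mature female 2 was 6.62 times the next library. Its log2FC over both sexes was 4.18 ± 1.36 (quasi-likelihood adjusted p = 0.254, likelihood ratio 0.0314).

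Gene010795 (bases 433 to 915 of its contig, no overlapping coding sequence) was the only chitin gene with all mature brains above all immature brains. It had 21.4 and 40.3 CPM in mature males and 34.5, 24.6 and 41.5 CPM in mature females, against 4.54, 8.02 and 0.350 CPM in immature males and 0.390 and 7.22 CPM in immature females. The mature libraries were also near each other, with the highest 1.94 times the lowest. The log2FC was 3.01 ± 0.83 over both sexes (quasi-likelihood adjusted p = 0.224, likelihood ratio 0.0219, DESeq2 0.00612).

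Gene019641, also with this symbol, had the opposite sign. It had 2.14 and 2.66 CPM in mature males and 2.14, 0.922 and 1.99 CPM in mature females, against 0, 10.02 and 2.10 CPM in immature males and 229 and 18.8 CPM in immature females. Its 0 counts in immature male 1 allow up to 0.591 CPM, for counting error only. Both immature females lay above all other libraries, and the immature males reached above and below the mature brains. The log2FC was -3.43 ± 0.98 over both sexes (quasi-likelihood adjusted p = 0.229, likelihood ratio 0.0300).

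**Figure D4:**
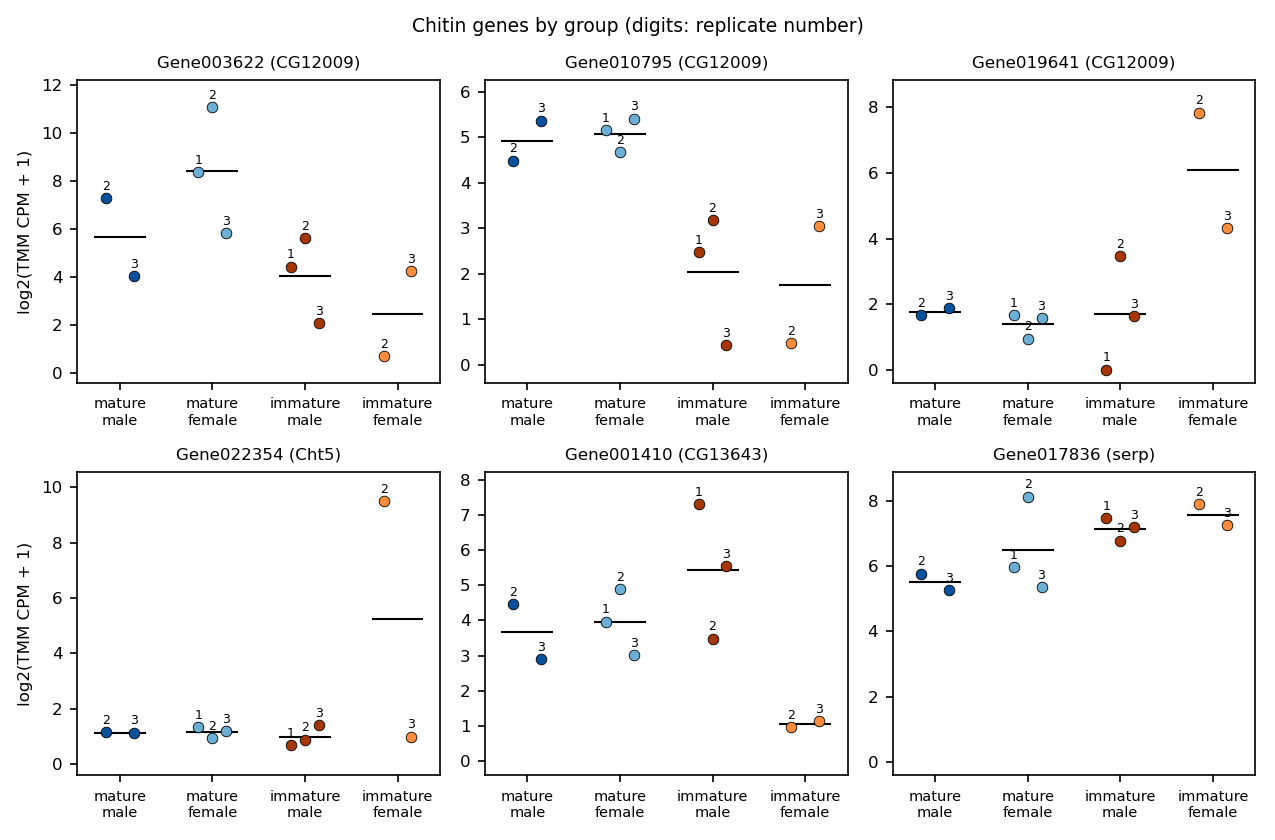
Levels as log2(TMM CPM + 1) of 6 chitin genes in each brain, 1 dot per library with its replicate number, mature groups left of immature ones, and the bar at the group mean. The mature dots of Gene010795 (21.4 to 41.5 CPM) all lie above its immature dots (0.350 to 8.02 CPM), while the 3 genes that share the symbol CG12009 differ in direction and Cht5 is high in 1 immature female.

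The Gasp and obstructor genes, whose Drosophila relatives build the chitin layers of airways and cuticle, gave a mixed picture: over both sexes 5 of the 8 had a log2FC below 0 and 3 above. Gene019599 had 73.6 and 46.8 CPM in mature males and 66.5, 253 and 32.2 CPM in mature females, against 398, 58.6 and 354 CPM in immature males and 309.9 and 39.6 CPM in immature females. Gene002159 had 12.2 and 3.05 CPM in mature males and 7.40, 32.0 and 1.62 CPM in mature females, against 109, 0.668 and 214 CPM in immature males and 126 and 1.64 CPM in immature females. For both genes immature male 1, immature male 3 and immature female 2 lay above every mature brain, while immature male 2 and immature female 3 lay among or below the mature ones. The log2FC was -1.38 ± 0.77 for Gene019599 (quasi-likelihood adjusted p = 0.405) and -3.05 ± 1.44 for Gene002159 (quasi-likelihood adjusted p = 0.346). Without immature female 2 it was -0.27 for Gene019599 and -0.37 for Gene002159, and with any other 1 library left out it came no nearer to 0 than -1.15 for the first and -2.56 for the second. The obst-B gene Gene006048 (overlapped by another coding sequence) had 15.7 and 20.2 CPM in mature males and 21.0, 32.6 and 13.4 CPM in mature females, against 50.6, 38.4 and 28 CPM in immature males and 96.7 and 28.8 CPM in immature females. Only mature female 2 reached into the immature range, and the log2FC was -1.31 ± 0.38 (quasi-likelihood adjusted p = 0.233, DESeq2 0.0452).

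The remaining genes with the lowest p for stage were less abundant. Hasp (Gene019540), which in Drosophila is a protein of the synaptic cleft, had 3.54 and 5.61 CPM in mature males and 10.3, 10.5 and 6.68 CPM in mature females, against 6.72, 10.7 and 7.48 CPM in immature males and 18.9 and 16.3 CPM in immature females. Within each sex the mature values lay below the immature ones, with a log2FC of -0.90 ± 0.25 (quasi-likelihood adjusted p = 0.224). CG14301 (Gene009040) had a log2FC of 1.71 ± 0.72, CG13643 (Gene014340) 0.57 ± 0.25, CG14607 (Gene023414) -1.63 ± 0.71 and the unnamed Gene022667 -0.82 ± 0.36, with quasi-likelihood adjusted p between 0.314 and 0.325. The mucin-like Gene003498, with its 12 CBM_14 domains, stayed within 22.2 to 55.4 CPM in all 10 libraries.

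The median stage difference had opposite signs in the sexes, although no single gene was called in either. In females, the median log2FC of the 65 genes was 0.38, with 38 above 0, against -0.02 for all genes. In males it was -0.75, with 43 below 0, against -0.01 for all genes. The only immature females were immature female 2 and immature female 3. In immature female 2, 24 of the 65 genes lay more than 4-fold below the mature median (36.9%, against 3.02% of all genes). More than 4-fold above it lay 8 (12.3%, against 3.19%). These spiders also enter the interaction and the comparison of the immature sexes, so those medians are not independent of this one. The peritrophin-type genes had a median of 0.51 in females and -0.82 in males, and the chitinase family -0.04 in females and -0.08 in males. Lists of other genes moved too. The muscle list had a median of 0.68 in females (20 of 22 above 0) and -0.14 in males (7 of 22), the neuron list 0.59 (45 of 49) and 0.18 (38 of 49), and the cuticle protein genes 2.20 (60 of 86) and 0.50 (49 of 86). Their part in the medians of the chitin genes was not tested.

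**Figure D5:**
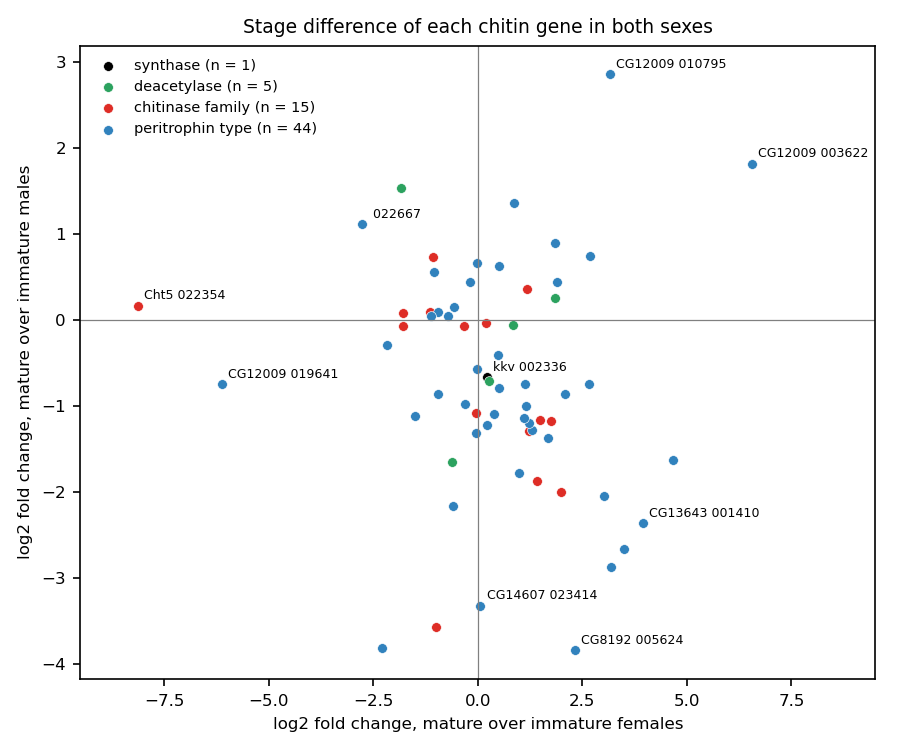
The log2 fold change of mature over immature females (horizontal) and of mature over immature males (vertical) for each of the 65 chitin genes, colored by class. Gene010795 is high on both axes (3.17 in females and 2.86 in males), Cht5 lies at -8.14 in females near 0 in males, and CG13643 Gene001410 lies at 3.94 in females and below 0 in males.

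Mature against immature females gave 0 of 65 chitin genes in the quasi-likelihood test, as it gave 0 (0%) of all genes. At an unadjusted p under 0.05 there were 15 (23.1%, against 10.5% of all genes), the likelihood ratio test called 3 (4.62%, against 1.18%), all lower in mature females (0.562% of all genes), and DESeq2 called 6 (9.23%, against 1.51%). The female groups did not overlap for 20 genes (30.8%, against 25% of all genes). The 3 likelihood ratio calls were Gene022667 (log2FC -2.76 ± 0.46, quasi-likelihood adjusted p = 0.234), Cht5 (-8.14 ± 1.81, 0.318) and CG12009 Gene019641 (-6.11 ± 1.39, 0.318). DESeq2 added CG13643 Gene001410 (3.94 ± 1.21), CG12009 Gene009152 (4.68 ± 1.59) and CG12009 Gene003622 (6.54 ± 2.26) as higher in mature females (0.907% of all genes). The log2FC and errors given here are those of the quasi-likelihood fit, with quasi-likelihood adjusted p from 0.400 to 0.437 for the genes that DESeq2 added. Without immature female 3 the quasi-likelihood test called 1 gene, Cht5 (log2FC -9.13, adjusted p = 0.000782), with immature female 2 as the only immature female, while without immature female 2 its log2FC was 0.36.

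Mature against immature males likewise gave 0 of 65, with 2 of all genes called (0.00802%). An unadjusted p under 0.05 was reached by 4 (6.15%, against 7.44% of all genes), and the likelihood ratio test and DESeq2 each called 0 (of all genes, 0.517% in the first test and 1.02% in the second). The male groups did not overlap for 14 genes (21.5%, against 22.5% of all genes), 12 of them lower in mature males (11.1% of all genes). The 4 were CG14607 Gene023414 (log2FC -3.32 ± 1.09), CG12009 Gene010795 (2.86 ± 1.10), Hasp Gene019540 (-0.86 ± 0.36) and CG8192 Gene005624 (-3.84 ± 1.62), with quasi-likelihood adjusted p from 0.603 to 0.651. CG14607 is a Drosophila gene with a peritrophin-type domain, and its spider match had 1.03 and 1.18 CPM in mature males against 24.5, 0.835 and 8.41 CPM in immature males. Immature male 1 and immature male 3 were the high ones, and without immature male 2 the gene was called (log2FC -3.88, quasi-likelihood adjusted p = 0.0468).

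The difference between these stage effects was tested as the interaction, the stage difference in males minus that in females. The quasi-likelihood test called 0 of the 65 chitin genes and 0 (0%) of all genes. Below an unadjusted p of 0.05 lay 14 (21.5%, against 3.2% of all genes), 11 of them below 0 (1.53% of all genes) and 3 above 0 (1.67%). The likelihood ratio test called 1 gene (1.54%, against 0.0562%), Gene022667 (3.88 ± 0.69 in the quasi-likelihood fit). DESeq2 called 1 (1.54%, against 0.128%), CG13643 Gene001410 (-6.30 ± 1.61 in the quasi-likelihood fit). The quasi-likelihood adjusted p was 1.00 for both. The median interaction was -1.05 for the 65 genes, against -0.04 for all genes. It was -0.72 for the muscle list (0 of 22 above 0), -0.31 for the neuron list (8 of 49) and -2.02 for the cuticle protein genes (18 of 86), so a median below 0 was not particular to the chitin genes. Without immature female 3, which leaves immature female 2 as the only immature female, 1 gene was called by the quasi-likelihood test, Cht5.

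The second comparison of the design was that of males and females. It shares its immature females with the stage comparison in females and with the interaction, so their results, medians included, are not independent. This holds for Cht5, Gene022667, Gene001410 and Gene019641 among others. In immature brains the quasi-likelihood test called 0 of the 65 chitin genes and 8 (0.0321%) of all genes. At an unadjusted p under 0.05 there were 21 (32.3%, against 6.01% of all genes), 14 higher in males (3.21% of all genes) and 7 lower (2.8%). The likelihood ratio test called 3 (4.62%, against 0.566%) and DESeq2 called 8 (12.3%, against 0.935%), and the groups did not overlap for 19 (29.2%, against 15%). The median log2FC was 0.62 for the 65 genes and 0.00 for all genes, with 43 above 0. Of the other lists, the muscle list had a median of 0.16 (19 of 22 above 0) and the cuticle protein genes 2.04 (68 of 86). The 3 genes were Gene022667 (log2FC -3.52 ± 0.49, quasi-likelihood adjusted p = 0.124), Cht5 (-8.39 ± 1.83, 0.662) and CG13643 Gene001410 (6.04 ± 1.32, 0.662). By the quasi-likelihood test, 1 gene was called without immature female 3 (Cht5) and 2 without immature male 2 (Gene001410 and Gene022667). Cht5 had a log2FC of 0.06 without immature female 2.

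Gene001410, with a predicted signal peptide and 2 CBM_14 domains, was a gene whose immature sexes did not overlap. It had 157, 10.2 and 45.6 CPM in immature males, against 0.937 and 1.20 CPM in immature females, and 21.0 and 6.50 CPM in mature males, against 14.7, 28.6 and 7.04 CPM in mature females. The immature females were far below all other brains, and the mature sexes overlapped. The unnamed Gene022667, which holds 1 CBM_14 domain, had 0.395, 0.835 and 0.350 CPM in immature males, against 6.17 and 6.01 CPM in immature females, and 1.40 and 0.886 CPM in mature males, against 0.750, 0.615 and 1.17 CPM in mature females. Both immature females, with 79 and 55 counts, stood above every other brain, and the other libraries had only 2 to 15 counts.

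A further group, higher in immature males by DESeq2 only, was highest in immature male 1 or immature male 3. The CG8192 gene Gene002122 had 108, 0.501 and 33.4 CPM in immature males, against 0.390 and 0.984 CPM in immature females. The CG8192 gene Gene005624 had 40.9, 0.668 and 18.1 CPM in immature males, against 0.780 and 0.328 CPM in immature females. Immature male 2 was as low as the immature females in both of these genes, so the groups overlapped. The Gasp gene Gene005416 had 379.8, 28.2 and 136 CPM in immature males, against 4.84 and 20.9 CPM in immature females, and CG13675 Gene024073 had 4.54, 0.501 and 21.7 CPM, against 0.0780 and 0.219 CPM. Those groups did not overlap, but immature male 2 again lay nearest to the females. In the other direction, DESeq2 alone called CG12009 Gene019641 lower in immature males (log2FC -4.93 ± 1.31 in the quasi-likelihood fit, DESeq2 adjusted p = 0.00999), with no overlap of the groups.

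Few chitin genes set the mature sexes apart. The quasi-likelihood test called 0 of the 65 chitin genes and 10 (0.0401%) of all genes, and the likelihood ratio test and DESeq2 also called 0 (of all genes, 0.181% in the first test and 0.201% in the second). At an unadjusted p under 0.05 there was 1 (1.54%, against 2.47% of all genes), Hasp, with a log2FC of -0.99 ± 0.36 (quasi-likelihood adjusted p = 1.00). The groups did not overlap for 5 genes (7.69%, against 13.9% of all genes). Of the 65 genes 52 lay below 0, with a median log2FC of -0.45, against -0.02 for all genes. The muscle list had a median of -0.53 (1 of 22 above 0) and the neuron list -0.20 (13 of 49), and their part in the value for the chitin genes was not tested. The deacetylase Cda9 (Gene013748) had 73.8 and 2.17 CPM in mature males, against 3.32, 5.84 and 1.44 CPM in mature females. Its log2FC of 3.50 ± 1.58 (quasi-likelihood adjusted p = 1.00) rested on mature male 2 and was -0.63 without that library. In immature brains Cda9 was high in immature male 2 (34.1 CPM) and immature female 3 (22.1 CPM) and 2.19 to 2.77 CPM in the other 3.

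Over both stages, males against females gave 0 of 65 in the quasi-likelihood test, with 10 (0.0401%) of all genes. Unadjusted p-values under 0.05 were found for 9 (13.8%, against 4.45% of all genes), the likelihood ratio test called 3 (4.62%, against 0.377%), and DESeq2 called 2 (3.08%, against 0.481%). The 3 were Gene022667 (log2FC -1.58 ± 0.35, quasi-likelihood adjusted p = 0.741), Gene001410 (2.89 ± 0.77, 0.928) and Cht5 (-4.24 ± 1.27, 0.964). Without immature female 3 the quasi-likelihood test called 1, Cht5, which had a log2FC of -0.01 without immature female 2. The sexes did not overlap for 1 gene (1.54%, against 0.594% of all genes), Gasp Gene009518, which has 3 CBM_14 domains. It had 5.13 and 2.36 CPM in mature males, against 5.36, 5.53 and 9.03 CPM in mature females, and 4.35, 3.51 and 2.34 CPM in immature males, against 9.13 and 10.6 CPM in immature females. This gap between the sexes was narrow, and the log2FC was -1.19 ± 0.31 (quasi-likelihood adjusted p = 0.928). Hasp had -1.04 ± 0.25 and CG8192 Gene002122 3.03 ± 1.12, and neither was called.

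Regulators of molting were followed in a list of 16 genes beside the chitin genes. Over both sexes the quasi-likelihood test called 0 of them, and 7 had an unadjusted p under 0.05 (15.1% of all genes). The likelihood ratio test called 5 lower in mature brains (1.5% of all genes). Among these were both genes named after Hr4, a nuclear receptor of the ecdysone response. The list's median log2FC was -0.41. The Hr4 gene Gene001472 had 4.48 and 4.13 CPM in mature males and 6.54, 15.7 and 6.68 CPM in mature females, against 154, 15.5 and 286 CPM in immature males and 137 and 5.14 CPM in immature females. The 3 immature libraries with the most of it were immature male 1, immature male 3 and immature female 2. They were also the 3 highest immature libraries for kkv, knk, Hexo2 Gene019783 and the Gasp genes Gene002159 and Gene019599. These genes were picked with their values in view. Among immature brains the other Hexo2 gene, Gene000027, was highest in immature male 2 (112 CPM) and lowest in immature female 2 (34.3 CPM). The same 3 were highest for 12 of the 65 chitin genes (18.5%, against 17.9% of all genes), and the Gasp gene Gene005416 was lowest in immature female 2. They differed from each other in Cht5, which only immature female 2 held at a high level. The receptor gene ftz-f1 (Gene007559) had 48.1 and 31.9 CPM in mature males and 50.3, 59.6 and 37.0 CPM in mature females, against 13, 29.7 and 4.21 CPM in immature males and 2.19 and 28.8 CPM in immature females. Here the same 3 immature libraries were the lowest, and all mature brains lay above all immature ones. The log2FC of Gene007559 was 1.51 ± 0.68 (quasi-likelihood adjusted p = 0.333). The other ftz-f1 gene, Gene024685, was also lowest in the same 3 immature libraries, but its stages overlapped. It had 1.90 CPM in mature female 3, against 2.62 CPM in immature female 3. The 86 tested genes with the cuticle protein domain had a median log2FC of 0.89 over both sexes. The likelihood ratio test called 21 higher (1.08% of all genes) and 2 lower (1.5% of all genes). The quasi-likelihood test called 0, and 33 had an unadjusted p under 0.05 (15.1% of all genes).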

How the data were processed

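Brain RNA of 10 spiders was sequenced. Per the labels and the methods, the authors trimmed reads (Trimmomatic 0.32 in the submitters' processing notes), built transcripts without a genome, took coding sequences from them, aligned the reads to these with BWA (0.6.1-r104 in the notes) and deposited reads per gene as counts, without normalization. How reads on several genes, mates and strand were handled is not given in the sources used here. Totals were 3481348 to 11789754 counts per library. In 14278 of 25943 annotation entries the fields stood 1 column to the left and were moved back. The 2 libraries left out by the authors for low coverage were not analysed here, nor was their differential expression table.

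The software was R 4.3.3, with the packages edgeR 4.0.16, limma 3.58.1 and DESeq2 (1.42.0). filterByExpr with a minimum count of 10 kept 24930 of 25922 genes, all 65 chitin genes among them. Libraries were scaled by TMM, and 4 group means were fitted by quasi-likelihood in its older dispersion form. Adjusted p under 0.05 (Benjamini-Hochberg over all genes tested) was a call. The standard error is the size of the log2 fold change over the square root of F, and log2 CPM used a prior count of 2. Tests were tried on simulated data with known changes.

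Named were the synthase, the 2 most abundant genes per kilobase of each other class, and the genes of lowest unadjusted p: 12 for stage, 4 for stage in each sex, 6 for sex, and 2 each for sex in immature brains, sex in mature brains and the interaction. Any other gene in the text was picked with its values in view. The chitin genes, lists and rules were chosen with earlier results of these data known. Alternatives were leaving out each library, a replicate block, fitting only the 2 groups compared, RLE scaling, other filters (none, or mean CPM of 1 or more), DESeq2 and the likelihood ratio test. The newer dispersion estimate and leaving out genes that overlap another coding sequence were chosen after seeing the data.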

Additional observations from a re-analysis of the deposited data

Results flagged for a closer look

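Among the named genes, 42 groups of 5 libraries (the mature or the immature ones) were examined for a library whose gap to its neighbour, divided by the range of log2 CPM, passed Dixon's critical value of 0.71. It was passed 3 times, where a rate of 1 in 20 would give 2.1. That rate need not hold here, since most of these genes were named for their p or level in the same libraries. Each group also pools both sexes. Cht5 (Gene022354) in immature female 2 was far above the other immature brains (723 CPM, ratio 0.8794). The serp gene Gene017836 in mature female 2 was far above the other mature brains (280.1 CPM, ratio 0.7536). The CG12009 gene Gene019641 in mature female 2 was below the other mature brains (0.922 CPM, ratio 0.7117), a gap of few counts, since the library had 3 counts for this gene.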

How the results depend on the processing

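For the 65 chitin genes, the quasi-likelihood calls stayed at 0 in all 7 comparisons with RLE scaling, with other filters (none, or mean CPM of 1 or more), with the newer dispersion estimate, with only the 2 groups compared in the model, and without genes that overlap another coding sequence. With the replicate number as a block they were also 0 in all 7. Deviations of same-numbered libraries correlated at -0.36 to 0.30 over 13 pairs, and those of differently numbered ones at -0.18 to 0.36 over 24 pairs. In groups of 2 the deviations mirror each other, so these values cannot tell whether the numbers pair the spiders. The likelihood ratio test called 3 genes for stage in females, 4 for stage over both sexes, 3 for sex in immature brains, 3 for sex over both stages and 1 for the interaction. DESeq2 called 6, 5, 8, 2 and 1 for the same comparisons. Leaving out each library in turn gave 0 to 1 for stage in either sex or over both, for sex over both stages and for the interaction, 0 to 2 for sex in immature brains and 0 to 0 for sex in mature brains. Of 36 pairs of a named gene and a comparison, 31 kept their direction under all alternatives run. The other 5 turned with 1 library left out. For kkv over both sexes the log2 fold change was 1.13 without immature female 2, 0.03 without immature male 3, 0.01 without mature female 3 and 0.11 without mature male 3, with leave-one-out values from -0.77 to 1.13. For Cht5 leaving out 1 library gave -4.48 to 0.30 for stage over both sexes, -9.13 to 0.36 for stage in females and -9.38 to 0.057 for sex in immature brains, each positive without immature female 2 alone. For Cda9, sex in mature brains, it gave -0.63 to 4.45, negative without mature male 2. Where 1 library alone carried the level of a gene, its removal sets the sign, and the cause was not tested for kkv. With groups of 2 and 3 spiders and a median coefficient of variation of 0.724 over the 65 genes, differences may have been missed, large ones included. Gene010795 had all mature brains above all immature ones and a log2 fold change of 3.01 over both sexes. The quasi-likelihood test did not call it (adjusted p = 0.224).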

Other observations

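Of the 6 genes that share the name Cht8, 3 (Gene023127, Gene000562 and Gene000563) were highest in immature female 3, and others were not. Gene023127 matches residues 12 to 300 of the Drosophila protein, and Gene000562 and Gene000563 match residues 280 to 474 and 280 to 446. These 3 may thus be pieces or variants of fewer transcripts and are not taken as independent. Gene024089 had 0.839 and 0.394 CPM in mature males and 0.857, 1.54 and 0.361 CPM in mature females, against 0.593, 0.334 and 21.1 CPM in immature males and 3.04 and 0.109 CPM in immature females, so that immature male 3 alone was high. Gene023127 had 6.90 and 1.97 CPM in mature males and 7.29, 14.1 and 1.35 CPM in mature females, against 2.96, 5.85 and 3.62 CPM in immature males and 3.04 and 29.3 CPM in immature females, with immature female 3 highest. The mucin-like gene Muc68D Gene023023 was also highest in immature female 3 (8.64 CPM, against at most 2.46 CPM in any other library). CG32036 Gene003977 was high in mature male 3 (66.3 CPM), immature male 2 (77.5 CPM) and immature female 3 (76.5 CPM) and at most 32.1 CPM in the other libraries. These genes were picked with their values in view, and no test was run for them as a group.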
